A study of Homo sapiens with 9 samples.

Results

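FLI1 and 8 other genes of the ETS family of transcription factors (ERG, ETS1, ETS2, ETV1, ETV6, ELK1, ELK3 and ELF1) were followed across 3 human breast epithelial cell lines. These 9 genes are a named selection from the 62666 genes of the table, of which 17910 were tested. The set was chosen on the measured RNA level of FLI1, present in MCF10A and at 0 in both lines derived from it, so the levels of FLI1 are given as a description, with no test. MCF10A cells come from human breast epithelium and do not form tumours. MCF10AT1 descends from MCF10A and carries activated HRAS, and serves as the premalignant model. MCF10Ca1a, further along the same lineage, forms tumours. Polyadenylated RNA was sequenced in 3 libraries per line, 9 in all, to follow expression along breast cancer progression. The medium of all 3 lines held cholera toxin at 100 ng/mL, insulin at 10 µg/mL, EGF at 20 ng/mL and hydrocortisone at 500 ng/mL. Horse serum was 5% for MCF10A and MCF10Ca1a and 2.5% for MCF10AT1, so serum and line cannot be told apart in any comparison with MCF10AT1. Each stage is represented by a single line, and nothing in the sources used here says that the 3 libraries of a line came from separate cultures, so p-values measure only the spread between these libraries.

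ETS factors share a DNA-binding domain, the ETS domain, that recognises sites with a GGAA core. FLI1 and ERG form one subfamily, known from blood and endothelial cells and from gene fusions in cancer. ETS1 and ETS2 are activated by phosphorylation through the RAS and MAPK pathway. ETV1 belongs to the PEA3 subfamily, which is regulated at the level of protein stability and by growth factor signalling. ELK1 and ELK3 belong to the ternary complex factor (TCF) subfamily, which binds DNA beside serum response factor. ETV6 is a repressor with an oligomerisation domain, and ELF1 is a broadly expressed activator of another subfamily.

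Library totals were 62898823 to 69508842 estimated counts in MCF10A and MCF10AT1 and 32930503 to 35243012 in MCF10Ca1a, so rare RNAs were measured with fewer counts in the malignant line. No pair of libraries of a line was identical, and chi-square per degree of freedom between them ran from 2.42 to 68.3. The highest values, 68.3 and 29.5, were for MCF10A library 1 against libraries 3 and 2. The 10 mammary epithelial markers were above 3 counts in every line, with a summed TPM (transcript abundance scaled for length and library) of 2620 to 3600 in MCF10A, 3720 to 4180 in MCF10AT1 and 4170 to 4290 in MCF10Ca1a. Of the 8 endothelial markers, CLDN5 and EMCN were at 0 in all 9 libraries, 5 were at or under 3 counts in every library of MCF10A, and the summed TPM of the list was 2.00 to 2.73, 3.60 to 4.90 and 16.6 to 22.0 in the 3 lines. PECAM1 alone made up most of the sum in MCF10Ca1a (0.626, 1.01 and 18.7 mean TPM in the 3 lines). Of the 10 blood cell markers, CD3E, HBB and TYROBP were at 0 throughout, ITGAM, CD68, CD14 and LAPTM5 were above 3 counts in at least 1 library of every line, as was CD34 in MCF10A and MCF10Ca1a, and the summed TPM was 20.4 to 28.6, 6.79 to 7.44 and 30.7 to 34.0. Of the 9 fibroblast markers, COL1A1, PDGFRB, DCN and FAP were above 3 counts in at least 1 library of every line, and PDGFRA and LUM in MCF10AT1. COL3A1 and THY1 were at 0 in MCF10A, COL1A2 in MCF10AT1 and COL1A2, LUM and THY1 in MCF10Ca1a, and the summed TPM was 52.7 to 60.1, 55.0 to 67.4 and 19.3 to 26.5.

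The sequences before the start sites of genes whose levels differed between the lines are shown to give their context, with each GGAA core, or TTCC where the core is on the other strand, in capitals. They are RefSeq promoter windows on GRCh38.p14, cut to the bases before both the RefSeq start and the GENCODE 29 start of the nearest transcript with at least 10% of the gene's TPM. ETS2 is on the plus strand at chr21:38805679-38805830, ETV1 on the minus strand at chr7:13989677-13989916, ELK3 on the plus strand at chr12:96194125-96194374 and ELF1 on the minus strand at chr13:41061441-41061636. The ETV1 bases lie inside the span of ETV1-210, which starts further upstream, at 13989946. That transcript had means of 21.5%, 18.0% and 26.4% of ETV1 TPM in the 3 lines. The ELF1 bases are next to the start of ELF1-202. The main transcript, ELF1-201, starts at 41019314, and the bases before it were not read. The window of SENCR, a noncoding gene antisense to FLI1 that is described with the locus, is on the minus strand at chr11:128696024-128696273.
ETS2: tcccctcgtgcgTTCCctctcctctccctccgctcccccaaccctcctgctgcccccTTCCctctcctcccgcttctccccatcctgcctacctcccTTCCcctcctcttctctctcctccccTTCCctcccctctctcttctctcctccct
ETV1: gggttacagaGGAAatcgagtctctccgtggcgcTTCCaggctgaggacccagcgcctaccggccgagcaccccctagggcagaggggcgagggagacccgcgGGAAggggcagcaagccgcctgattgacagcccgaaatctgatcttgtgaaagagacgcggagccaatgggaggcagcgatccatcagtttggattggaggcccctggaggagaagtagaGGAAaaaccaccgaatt
ELK3: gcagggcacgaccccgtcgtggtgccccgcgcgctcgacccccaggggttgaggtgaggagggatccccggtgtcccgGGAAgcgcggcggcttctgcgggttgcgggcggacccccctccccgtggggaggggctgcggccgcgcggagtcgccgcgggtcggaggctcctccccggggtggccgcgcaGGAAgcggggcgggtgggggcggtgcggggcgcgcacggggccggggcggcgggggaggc
ELF1: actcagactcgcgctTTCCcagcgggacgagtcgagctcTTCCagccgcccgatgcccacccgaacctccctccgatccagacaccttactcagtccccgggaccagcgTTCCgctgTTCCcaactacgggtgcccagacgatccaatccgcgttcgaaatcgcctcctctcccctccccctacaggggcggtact
SENCR: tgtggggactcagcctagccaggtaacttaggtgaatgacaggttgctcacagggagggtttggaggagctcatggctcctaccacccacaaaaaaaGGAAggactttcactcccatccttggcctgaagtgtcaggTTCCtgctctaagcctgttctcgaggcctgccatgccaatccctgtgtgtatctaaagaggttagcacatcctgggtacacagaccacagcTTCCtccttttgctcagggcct

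The printed bases hold 4 GGAA cores for ETS2, 4 for ETV1, 2 for ELK3, 4 for ELF1 and 3 for SENCR. Over the whole 250 bases before the RefSeq start, ETS2 had 6 cores, a number that 9.14% of all 35116 RefSeq windows reach or exceed, whereas ELK3 had 2, which 76.5% of windows reach. A GGAA core on either strand is present in 92.7% of all windows and the median is 3. The longer CCGGAA, which contains the core and is present in 14.5% of windows on either strand, was absent from the 250 bases of ETS2, ETV1, ELK3, ELF1, ETV6, ELK1 and SENCR. The AP-1 motif TGANTCA (6.57% of windows) and the CArG box of serum response factor (1.16% of windows) were also absent from these windows on both strands. These matches describe letters only. The RefSeq windows used here include none for FLI1 or ETS1, and that of ERG was not read.

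FLI1 (ENSG00000151702.18, chr11:128686535-128813267, plus strand, in GENCODE 29 on GRCh38, which gives all gene positions here) had 1046, 983 and 954 estimated counts in the MCF10A libraries and 0 in each of the 3 MCF10AT1 and 3 MCF10Ca1a libraries. This was 16.3, 15.2 and 13.7 CPM (counts scaled to library size) in MCF10A, a mean of 15.1 ± 1.33 (SD, n = 3), and 6.47 ± 0.842 TPM (SD, n = 3). With the deposited scaled counts the mean was 6.46 CPM, and the bounds that follow rest on the estimated counts. Taking 3 counts per library as the floor that a count of 0 allows, FLI1 was at least 311-fold lower in MCF10AT1 and at least 169-fold lower in MCF10Ca1a, and the smaller bound in MCF10Ca1a follows from its fewer counts. The floor covers counting error only. In bulk RNA, fewer cells with a transcript and less of it per cell cannot be told apart.

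FLI1 was not alone in this pattern. Of the 17910 genes tested, 54 (0.302%) had a mean of at least 100 counts in MCF10A and at most 3 counts in every MCF10AT1 and MCF10Ca1a library, and FLI1 ranked 7 among them by mean CPM. PDPN, which encodes podoplanin, led at 66.7 CPM, followed by LDAH at 26.7 and CCND2, the gene of cyclin D2, at 21.3. By the same limits, 54 genes were on in MCF10A and MCF10AT1 and off in MCF10Ca1a, 15 were on in both derived lines and off in MCF10A, 6 were on only in MCF10AT1, 7 only in MCF10Ca1a, and 3 in MCF10A and MCF10Ca1a but not MCF10AT1.

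ERG (ENSG00000157554.20, chr21:38380027-38661780, minus strand), the closest relative of FLI1 among the 9, had 0 counts in every MCF10A and MCF10AT1 library and 2, 0 and 1 in MCF10Ca1a, all within the floor, and it was too low to be tested. The ERG subfamily as a whole, FLI1, ERG and FEV, went from 1.66 ± 0.093% (SD, n = 3) of the summed TPM of all 28 ETS genes in MCF10A to 0 in MCF10AT1 and 0.00774 ± 0.00723% (SD, n = 3) in MCF10Ca1a, and FEV was at 0 in all 9 libraries.

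**Figure D1:**
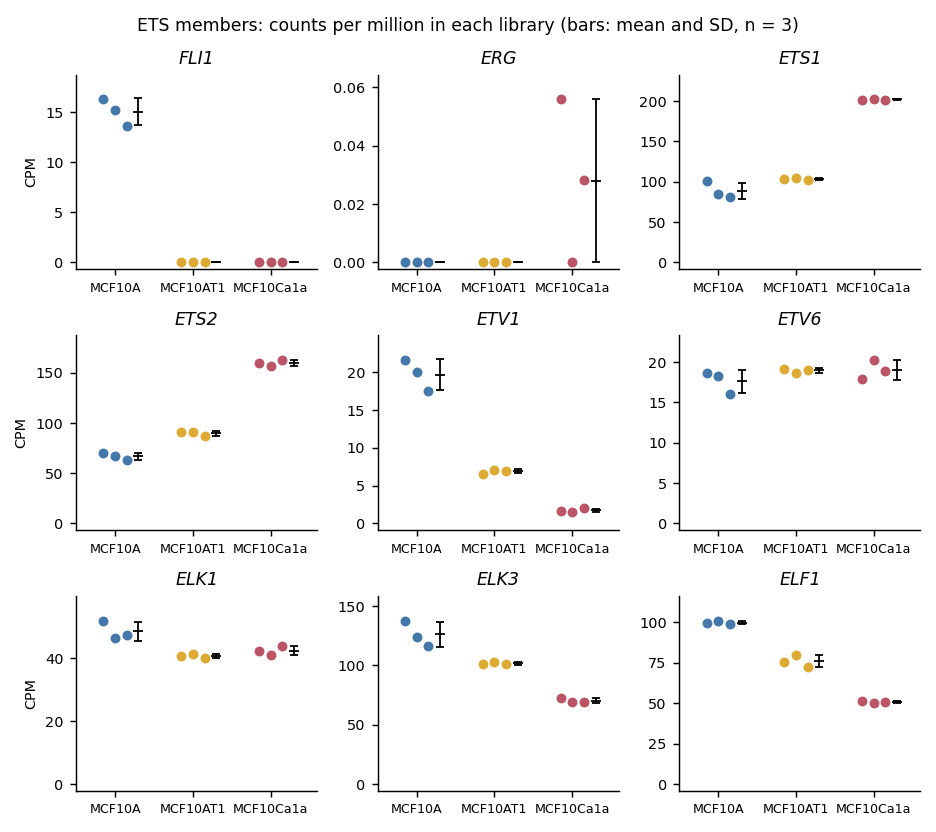
CPM of the 9 ETS genes in each library, 1 panel per gene with its own linear axis, with points for libraries and bars for the mean and SD of 3. FLI1 lies between 13.7 and 16.3 in MCF10A and at 0 in the other 6 libraries, ETS1 and ETS2 are highest in MCF10Ca1a, ETV1, ELK3 and ELF1 are lowest there, and ERG does not exceed 0.0559.

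Among the 8 other genes, 7 passed the filter on low counts and ERG did not. With edgeR's quasi-likelihood test at an adjusted p under 0.05, 6 of the 7 were called in MCF10AT1 against MCF10A (2 higher, 4 lower), 6 in MCF10Ca1a against MCF10A (2 higher, 4 lower) and 5 in MCF10Ca1a against MCF10AT1 (2 higher, 3 lower). Over all genes tested, 61.6% were called in the first comparison (29.8% higher, 31.8% lower), 80.9% in the second (39.0% higher, 41.9% lower) and 78.4% in the third (38.0% higher, 40.3% lower). With 7 genes tested, these shares are near those of all genes. The comparisons share libraries, so each gene's changes are not independent of each other. On log2(TPM + 1) with limma the balance of all genes differed: 3223 were higher and 5741 lower in MCF10AT1 against MCF10A (5335 and 5690 in the edgeR test of counts), 7075 and 5665 in MCF10Ca1a against MCF10A (6979 and 7512), and 7721 and 4784 in MCF10Ca1a against MCF10AT1 (6808 and 7226). The median change of all genes on log2(TPM + 0.1) was -0.12, 0.12 and 0.24 in the 3 comparisons, against -0.0038, -0.05 and -0.04 in the counts.

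ETS1 (ENSG00000134954.14, chr11:128458761-128587558, minus strand), the founding member of the family, had 100.5, 84.7 and 81.2 CPM in MCF10A, 103.9, 104.6 and 102.6 in the MCF10AT1 libraries and 202.0, 202.6 and 201.8 in MCF10Ca1a. The malignant libraries lay close together and far above the rest, and the lowest MCF10AT1 library was only just above MCF10A library 1. ETS1 rose by 1.19 ± 0.07 (log2 change ± SE, adjusted p = 1.25e-09) in MCF10Ca1a against MCF10A and by 0.96 ± 0.07 (adjusted p = 1.37e-08) against MCF10AT1. The rise of 0.22 ± 0.07 in MCF10AT1 against MCF10A had an adjusted p of 0.0115, which was 0.0621 without MCF10A library 2 and 0.448 on log2(TPM + 1), where the change was 0.10.

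ETS2 (ENSG00000157557.13, chr21:38805307-38824955, plus strand), the nearest paralog of ETS1, rose at both steps. Its CPM were 70.4, 66.9 and 62.8 in MCF10A, 91.1, 91.3 and 87.2 in the MCF10AT1 libraries and 160.3, 156.8 and 162.9 in MCF10Ca1a, with no overlap between lines. The log2 change was 0.43 ± 0.05 (SE, adjusted p = 8.99e-06) for MCF10AT1 against MCF10A, 0.83 ± 0.05 (adjusted p = 3.88e-09) for MCF10Ca1a against MCF10AT1 and 1.26 ± 0.05 (adjusted p = 3.99e-11) over both, a 2.40-fold difference. The first of these was 0.22 on log2(TPM + 1), with an adjusted p of 0.0736 without a filter. The ETS subfamily of ETS1 and ETS2 held 14.6 ± 0.397%, 19.2 ± 0.237% and 30.3 ± 0.199% (SD, n = 3) of the summed ETS TPM in MCF10A, MCF10AT1 and MCF10Ca1a.

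ETV1 (ENSG00000006468.15, chr7:13891228-13991425, minus strand) fell most among the 7 tested members, which leave out FLI1. It had 1389, 1295 and 1222 counts in MCF10A, 439, 472 and 432 in the MCF10AT1 libraries and 60, 51 and 70 in MCF10Ca1a, or 21.7, 20.0 and 17.5 CPM, then 6.58, 7.12 and 6.96, then 1.68, 1.52 and 1.97. The 3 lines were separated at each step. ETV1 fell by 1.52 ± 0.09 on the log2 scale (SE, adjusted p = 4.59e-09), a 2.86-fold fall, in MCF10AT1 against MCF10A. It fell by a further 2.00 ± 0.12 (adjusted p = 2.34e-09) in MCF10Ca1a against MCF10AT1, and was 11.4-fold lower in MCF10Ca1a than in MCF10A. On log2(TPM + 1) the fall over both steps was -2.35, and that of the second step was -0.91, against -1.39 on log2(TPM + 0.1). The mean TPM of ETV1 was 2.80 in MCF10AT1 and 1.06 in MCF10Ca1a.

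Its 2 PEA3 relatives, ETV4 and ETV5, which are known targets of MAPK signalling, moved by less. ETV4 had 1990, 1767 and 1855 counts in MCF10A, 2841, 2837 and 2508 in the MCF10AT1 libraries and 816, 738 and 819 in MCF10Ca1a, and rose by 0.57 ± 0.06 (SE, adjusted p = 2.08e-06) in MCF10AT1 against MCF10A. In MCF10Ca1a against MCF10A it fell by 0.32 ± 0.06 (adjusted p = 3.41e-04, and 0.0525 on log2(TPM + 1) without a filter). ETV5 fell by 0.25 and 0.34 in the same comparisons. The subfamily held 14.0 ± 0.267%, 14.0 ± 0.251% and 7.69 ± 0.129% (SD, n = 3) of the summed ETS TPM.

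ETV6 (ENSG00000139083.11, chr12:11649854-11895402, plus strand) did not pass the test in any comparison. It had 18.6, 18.2 and 16.0 CPM in MCF10A, 19.1, 18.7 and 19.1 in the MCF10AT1 libraries and 17.9, 20.3 and 18.9 in MCF10Ca1a, and the derived lines overlapped. The log2 change was 0.11 (95% interval -0.04 to 0.25) in MCF10AT1 against MCF10A, 0.11 (-0.04 to 0.26) in MCF10Ca1a against MCF10A and 0.0025 (-0.14 to 0.15) in MCF10Ca1a against MCF10AT1. On log2(TPM + 1) the last of these was 0.25 with an adjusted p of 0.0313 by limma, near the 0.19 by which the median of all genes was shifted on that scale. ETV7, the other gene of the TEL subfamily, had 44, 48 and 52 counts in MCF10A, 12, 17 and 12 in the MCF10AT1 libraries and 16, 16 and 22 in MCF10Ca1a.

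ELK1 (ENSG00000126767.18, chrX:47635521-47650604, minus strand) was lower in both derived lines by a small amount. Its CPM were 51.8, 46.3 and 47.2 in MCF10A, 40.8, 41.4 and 40.0 in the MCF10AT1 libraries and 42.4, 40.9 and 43.8 in MCF10Ca1a, with no overlap between MCF10A and either derived line. ELK1 fell by 0.25 ± 0.05 (SE, adjusted p = 0.00106) and 0.19 ± 0.05 (adjusted p = 0.00489) on the log2 scale in MCF10AT1 and MCF10Ca1a against MCF10A. The latter had a change of -0.03 and an adjusted p of 0.712 on log2(TPM + 1). Between the derived lines the change was 0.06 (95% interval -0.06 to 0.17) in counts and 0.32 (adjusted p = 0.00455) on log2(TPM + 1). ELK1 has pseudogene copies, and reads shared with them cannot be assigned with certainty.

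ELK3 (ENSG00000111145.8, chr12:96194382-96269835, plus strand), which can repress serum response genes and switch to activation on phosphorylation, fell at both steps. It had 137.6, 124.1 and 116.5 CPM in MCF10A, 101.4, 103.1 and 101 in the MCF10AT1 libraries and 73.0, 69.0 and 69.1 in MCF10Ca1a. No library of one line reached those of the next. The log2 change was -0.31 ± 0.06, -0.84 ± 0.06 and -0.53 ± 0.06 (SE), with adjusted p-values of 5.20e-04, 1.42e-08 and 2.08e-06, for the premalignant over the parental line, the malignant over the parental and the malignant over the premalignant, and the last was -0.27 on log2(TPM + 1).

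ELK4, the other TCF gene, moved the opposite way from ELK3 in MCF10Ca1a. It had 6363, 6429 and 6733 counts in MCF10A, 4013, 3770 and 4044 in the MCF10AT1 libraries and 5099, 4834 and 4397 in MCF10Ca1a, where library totals were lower. Against MCF10A, it fell in MCF10AT1 by 0.70 ± 0.07 (SE, adjusted p = 6.92e-07) and rose by 0.48 ± 0.07 (adjusted p = 1.25e-05) in MCF10Ca1a.

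ELF1 (ENSG00000120690.16, chr13:40932028-41061440, minus strand) fell at both steps. It had 99.4, 101 and 99.3 CPM in MCF10A, 75.4, 79.8 and 72.6 in the MCF10AT1 libraries and 51.7, 50.4 and 50.8 in MCF10Ca1a, with the lines apart. The log2 change in MCF10AT1 against MCF10A was -0.39 ± 0.05 (SE, adjusted p = 8.12e-06). It was -0.97 ± 0.05 (adjusted p = 3.01e-10) in MCF10Ca1a against MCF10A and -0.58 ± 0.05 (adjusted p = 1.01e-07) in MCF10Ca1a against MCF10AT1. The last was -0.19 (adjusted p = 0.0184 by limma) on log2(TPM + 1), where the median of all genes was 0.19. The ELF subfamily of ELF1, ELF2 and ELF4 held 22.3 ± 0.98%, 18.8 ± 0.493% and 12.2 ± 0.294% (SD, n = 3) of the summed ETS TPM.

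The levels of different genes can be compared only per length, so the order of the 9 is given in TPM. In MCF10A, ELK3 (54.1 ± 7.76 TPM, SD, n = 3) and ELF1 (54.0 ± 3.07) were highest and overlapped, followed by ETS2 (31.0 ± 3.70), ETS1 (25.9 ± 4.67) and ELK1 (22.6 ± 2.80), each of which overlapped the next. ETV1 (9.33 ± 1.04), FLI1 (6.47 ± 0.842), ETV6 (4.11 ± 0.619) and ERG (0) then followed with no overlap between neighbours. FLI1 was thus seventh of the 9 and sixteenth of the 28 ETS genes in the line that expressed it. In MCF10AT1 the order began with ELK3 (38.1 ± 0.932), ELF1 (37.0 ± 2.30) and ETS2 (36.0 ± 1.19), whose neighbours overlapped. In MCF10Ca1a it began with ETS2 (82.6 ± 0.664) and ETS1 (63.9 ± 0.776), which overlapped neither each other nor ELF1 (32.3 ± 0.457). ELF1 overlapped ELK3 (31.5 ± 1.01), and ELK1 (21.95 ± 0.776), ETV6 (4.82 ± 0.247) and ETV1 (1.06 ± 0.452) stood apart.

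FLI1 RNA in MCF10A was assigned mainly to ENST00000696982.1, at 53.5%, 52.0% and 47.3% of the gene's TPM in the 3 libraries, a transcript with no match in GENCODE 29. FLI1-205 had 28.7%, 16.1% and 26.4% and FLI1-209 had 6.51%, 6.93% and 18.6%. The split between the latter 2 varied between libraries of the same line, and the uncertainty of assigning reads to transcripts was not used here.

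The share of 7 transcripts of ETS2, ELK1 and ETV1 was tested with limma on log2 of one transcript over all others from that gene. In MCF10AT1 against MCF10A, 2 of the 7 were called, against 7.44% of 25926 transcripts over all genes. In MCF10Ca1a against MCF10A limma called 0, with 0 at an unadjusted p under 0.05, against 32.9% called over all genes. In MCF10Ca1a against MCF10AT1, 2 were called, against 26.9%. All the calls were in ETS2, and in the same 2 transcripts. These hold most of its TPM, so a higher share of either lowers the other. The 2 calls of a comparison are thus not independent, and nothing is read from their number.

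ETS2-202 held 60.6%, 54.5% and 58.5% of ETS2 TPM in MCF10A, 69.7%, 74.4% and 69.9% in the MCF10AT1 libraries and 52.9%, 57.2% and 54.4% in MCF10Ca1a. The 3 MCF10AT1 libraries stood above the other 6. ENST00000662305.1, which has no match in GENCODE 29, held 35.2%, 40.9% and 37.2% in MCF10A, 26.4%, 21.3% and 21.6% in the MCF10AT1 libraries and 34.6%, 32.7% and 36.2% in MCF10Ca1a, lowest where ETS2-202 was highest. In MCF10AT1 against MCF10A the share of ETS2-202 rose by 0.86 ± 0.15 (log2 ratio ± SE, adjusted p = 0.0163) and that of ENST00000662305.1 fell by 1.02 ± 0.14 (adjusted p = 0.00611). The call of ETS2-202 was lost without MCF10A library 2 (adjusted p = 0.0515) and without MCF10AT1 library 2 (adjusted p = 0.0511). In MCF10Ca1a against MCF10AT1 the changes were -1.02 ± 0.15 (adjusted p = 0.00239) and 0.87 ± 0.14 (adjusted p = 0.00338).

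ELF1-202, a short 2-exon transcript of 903 bases with 72 coding bases whose start is nearest to the printed ELF1 sequence, was below the minimum share of counts for the test. It held 12.1%, 11.3% and 11.0% of ELF1 TPM in MCF10A, 11.1%, 11.2% and 10.7% in the MCF10AT1 libraries and 19.6%, 20.8% and 22.5% in MCF10Ca1a. The main transcript, ELF1-201, was at 86.7% to 88.5%, 88.4% to 89.1% and 76.4% to 78.4%. A single transcript held most of ETS1 (ETS1-201, 92.6% to 98.4% over the 9 libraries), ELK3 (ELK3-201, 92.7% to 98.3%) and ETV6 (ETV6-202, 93.9% to 100%). ELK1 was divided between ELK1-203 (51.1% to 60.8%) and ELK1-201 (35.7% to 46.1%), with no call in any comparison. ETV1 was divided between ETV1-205, ETV1-207 and ETV1-210, whose shares in MCF10Ca1a ran from 0 to 31.9%, 0 to 58.0% and 11.3% to 42.0%, on 51 to 70 counts for the gene.

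**Figure D2:**
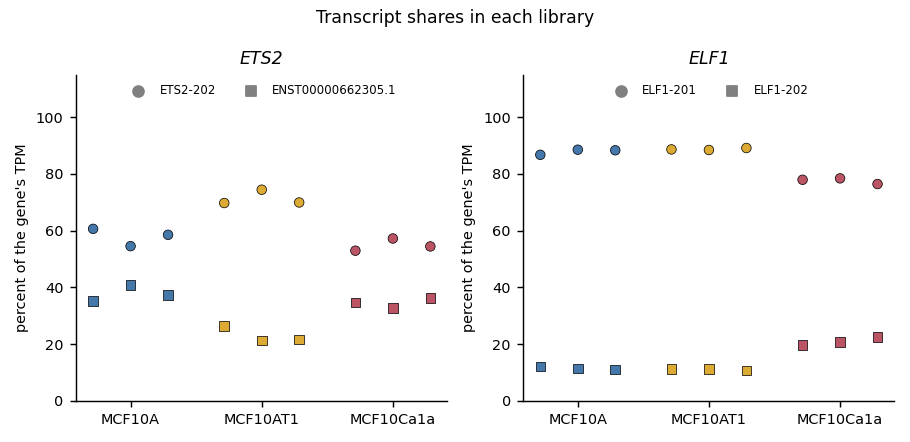
Percent of the gene's TPM held by the 2 main transcripts of ETS2 (left) and ELF1 (right) in each library, coloured by line, with circles and squares for transcripts. ETS2-202 lies between 69.7% and 74.4% in MCF10AT1 and at 60.6% or less elsewhere, and ELF1-202 lies between 19.6% and 22.5% in MCF10Ca1a and at 12.1% or less elsewhere.

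FLI1 and ETS1 both lie on chromosome 11, with 99 kb between them, and ERG and ETS2 on chromosome 21, with 144 kb between them. ETS1 rose in MCF10Ca1a, where FLI1 was at 0. ETS2 also rose there, but ERG was within the floor in every line, so that pair holds no change of ERG to compare. Within 500 kb of FLI1 the table holds 16 other genes, of which 8 were at 0 in all libraries and 5 were tested. SENCR (ENSG00000254703.4, chr11:128691672-128696023, minus strand), a noncoding RNA that overlaps the 5′ region of FLI1 on the opposite strand, had 83, 82 and 88 counts in MCF10A, with 1 in each premalignant and 0 in each malignant library. This was at least 26.4-fold lower in MCF10AT1 and at least 14.3-fold lower in MCF10Ca1a. The kit marks strand, but how the authors' counting used it is not given in the sources used here, so reads of SENCR and FLI1 may not be fully separated.

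KCNJ5-AS1, antisense to the potassium channel gene KCNJ5 and 86.3 kb from FLI1, had 275, 275 and 315 counts in MCF10A, 211, 183 and 178 in the MCF10AT1 libraries and 28, 16 and 26 in MCF10Ca1a. It fell by 0.57 ± 0.12 (SE, adjusted p = 0.00104) and 2.70 ± 0.16 (adjusted p = 1.37e-09) on the log2 scale against MCF10A, with ranges across settings of -0.79 to -0.40 and -2.84 to -1.06. ARHGAP32, 152 kb from FLI1, had 3362, 3228 and 3491 counts in MCF10A, 3550, 3541 and 3795 in the MCF10AT1 libraries and 2300, 1902 and 2115 in MCF10Ca1a, and its log2 changes were 0.14 (adjusted p = 0.0745) and 0.25 (adjusted p = 0.00336). TP53AIP1 was low, at 16, 21 and 23, then 9, 21 and 13, then 4, 4 and 7 counts, and KCNJ1, KCNJ5 and LINC02098 did not exceed 2 counts in any library. Thus the fall to the floor in both derived lines was seen in FLI1 and SENCR and not in the tested genes on either side.

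Near ERG, KCNJ15, another potassium channel gene 72.7 kb away, had 2488, 2586 and 2751 counts in MCF10A, 1335, 1360 and 1138 in the MCF10AT1 libraries and 0, 0 and 1 in MCF10Ca1a. It fell by 1.005 ± 0.06 (log2 change ± SE, adjusted p = 6.46e-09) in MCF10AT1 and was at least 442-fold lower in MCF10Ca1a than in MCF10A.

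**Figure D3:**
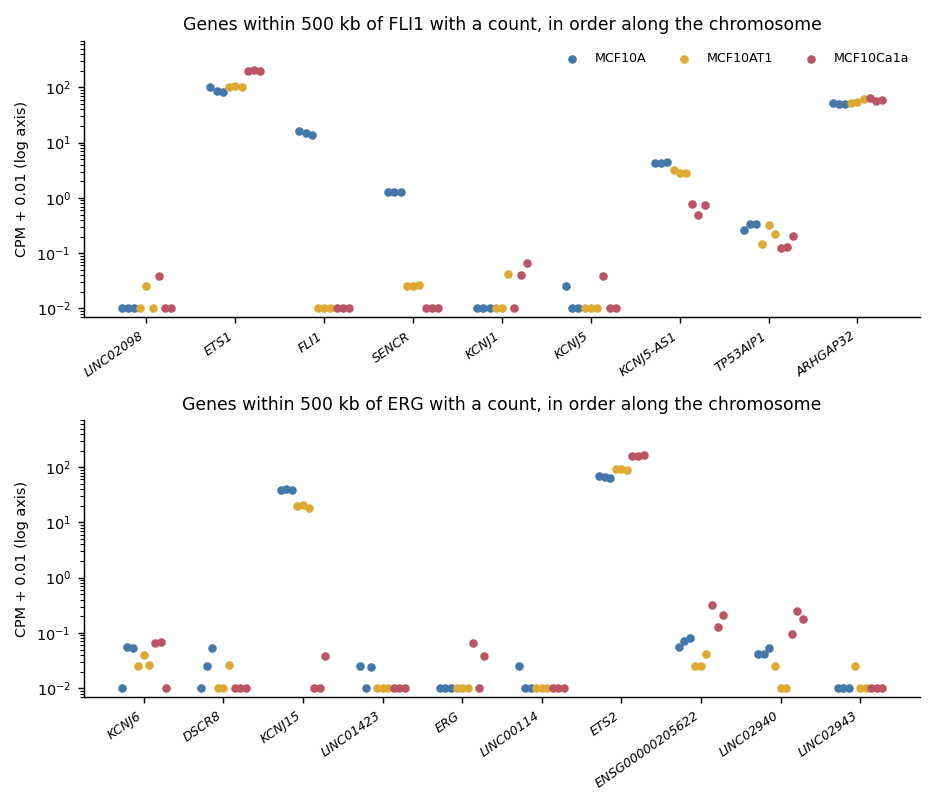
CPM plus 0.01, on a log axis, of the genes with at least 1 count within 500 kb of FLI1 (top) and ERG (bottom), in their order along the chromosome, with 1 point per library coloured by line. FLI1 and SENCR are at or near the bottom of the axis in both derived lines while ETS1 and ARHGAP32 are not, and KCNJ15 is there only in MCF10Ca1a.

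The other 19 genes of the family were read to place the 9. Of these, 12 were tested and 10, 10 and 11 were called in MCF10AT1 against MCF10A (4 higher, 6 lower), MCF10Ca1a against MCF10A (5 higher, 5 lower) and MCF10Ca1a against MCF10AT1 (7 higher, 4 lower), where 61.6%, 80.9% and 78.4% of all genes were called. Of these calls, that of ELF4 was lost in 15 of 20 settings in the first comparison and in 8 of 20 in the last. ELF3 and, in MCF10Ca1a, EHF were among those that rose, and both belong to the epithelial ESE subfamily. ELF3 had 63, 72 and 75 counts in MCF10A, 705, 604 and 577 in the MCF10AT1 libraries and 1222, 1174 and 1276 in MCF10Ca1a, and was 9.13-fold and 33.1-fold higher in the derived lines (adjusted p = 3.41e-12 and 8.11e-15). These are log2 changes of 3.19 and 5.05, which ran from 2.15 to 3.47 and from 4.21 to 5.41 across the settings tried. EHF had 42.8 CPM in MCF10A, 42.1 in MCF10AT1 and 183.8 in MCF10Ca1a, a 4.29-fold rise (adjusted p = 6.80e-13) in the malignant line, while its change in MCF10AT1 against MCF10A was -0.03 in counts and -0.41 (adjusted p = 0.00301) on log2(TPM + 1). ETV2, a factor of early blood and vessel development, was low, at 18, 16 and 24 counts in MCF10A, 44, 47 and 29 in the MCF10AT1 libraries and 38, 39 and 48 in MCF10Ca1a. It was 4.07-fold higher in MCF10Ca1a than in MCF10A (adjusted p = 2.83e-06), a log2 change of 2.02 that ran from 1.52 to 2.49 across settings. Its log2 change in MCF10AT1 against MCF10A was 1.07 ± 0.24 (SE, adjusted p = 0.00169), and the call was lost on log2(TPM + 1) without a filter (adjusted p = 0.0906). ERF, a repressor inhibited by MAPK phosphorylation, rose by 0.54 ± 0.06 (SE) in MCF10AT1 and fell by 0.63 ± 0.07 in MCF10Ca1a, both against MCF10A. ETV3, its close relative, moved the other way, at -0.68 ± 0.06 and 0.37 ± 0.06. The myeloid and lymphoid factors SPI1, SPIB and SPIC did not exceed 3 counts in any library.

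**Figure D4:**
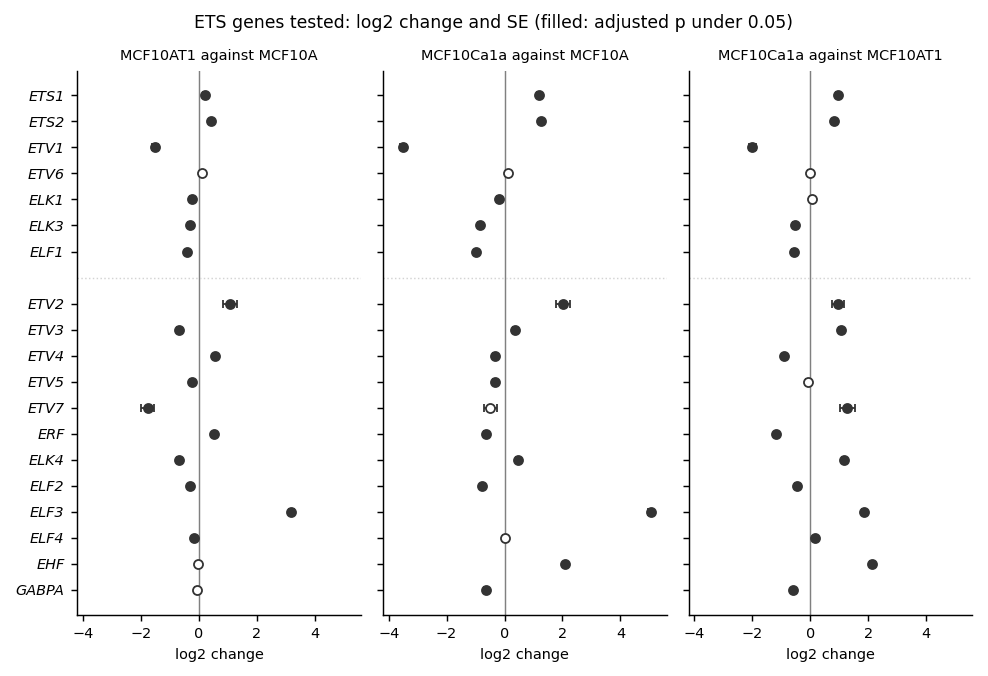
Log2 change and SE of the 19 ETS genes tested other than FLI1, 1 panel per comparison, with filled points for an adjusted p under 0.05 (edgeR), the 7 tested members above the dotted line and 12 other family genes under it. ETV1 is the lowest in MCF10Ca1a against MCF10A at -3.51 and ELF3 the highest at 5.05, and ETV6 is open in all 3 panels.

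The summed TPM of the 27 ETS genes other than FLI1 was 432.4, 371.8 and 344.0 in MCF10A, 336.4, 337.8 and 318.1 in the MCF10AT1 libraries and 489.0, 483.3 and 476.8 in MCF10Ca1a. The lines did not overlap, and each exact permutation test (two-sided, 3 against 3 libraries) gave p = 0.1, the smallest it allows. MCF10A library 1 was the highest of its line. The mean ratio of MCF10Ca1a to MCF10AT1 was 1.46 in TPM and 1.35 as a sum of CPM. The 9 genes held 53.3 ± 0.356%, 49.2 ± 0.182% and 49.3 ± 0.547% (SD, n = 3) of the total in the 3 lines. The TCF subfamily of ELK1, ELK3 and ELK4 held 25.3 ± 0.101%, 20.4 ± 0.517% and 18.4 ± 0.36%, and the ESE subfamily 4.34 ± 0.232%, 5.45 ± 0.174% and 18.5 ± 0.339% (SD, n = 3).

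**Figure D5:**
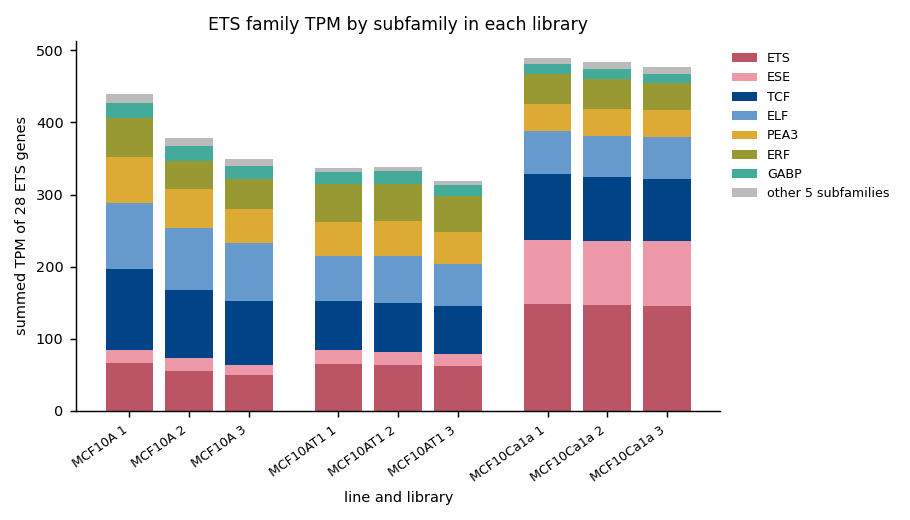
Summed TPM of the 28 ETS genes in each library, stacked by subfamily on an axis from 0. The ETS and ESE segments are tallest in the 3 MCF10Ca1a libraries, where they hold 30.3% and 18.5% of the sum, and the totals run from 318.1 in MCF10AT1 to 489.0 in MCF10Ca1a.

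Proteins that act with ETS factors were read from a list of 24 genes, of which 22 were tested. In MCF10AT1 against MCF10A, 6 were higher and 13 lower, and in MCF10Ca1a against MCF10A 7 were higher and 11 lower. In MCF10Ca1a against MCF10AT1, 10 were higher and 6 lower. Over all genes 61.6%, 80.9% and 78.4% were called. The median log2 change of the list was -0.23, -0.27 and 0.04, against -0.0038, -0.05 and -0.04 for all genes tested. EP300, the coactivator p300, rose by 1.20 and 1.77 in the derived lines, from 23.4 CPM in MCF10A to 53.8 and 79.8. The largest falls in MCF10AT1 were those of PAX8, a paired-box factor (log2 change -1.98, from 172, 130 and 140 counts to 37, 33 and 40, and -2.41 to -1.03 across settings), COP1, a ubiquitin ligase that targets ETS factors (-0.64), and CREBBP, the paralog of EP300 (-0.54). RUNX2, a DNA-binding partner of ETS1, fell by 1.55 in MCF10Ca1a (-1.63 to -0.80 across settings). FOS, an AP-1 subunit, rose by 0.84 in MCF10AT1 and fell by 1.17 in MCF10Ca1a, all against MCF10A.

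Immediate early genes bound by ELK factors and SRF formed a list of 12, all tested. In MCF10AT1 against MCF10A, 9 were higher and 1 lower, with a median log2 change of 0.83 against -0.0038 for all genes, of which 29.8% were higher and 31.8% lower. EGR3 rose by 3.42, NR4A1 by 2.79 and EGR2 by 2.72, the last from 7, 5 and 11 counts in MCF10A. Across the settings tried, these log2 changes ran from 1.27 to 3.61, from 1.51 to 2.89 and from 0.33 to 3.03, lowest on log2(TPM + 1). In MCF10Ca1a against MCF10A, 8 were higher and 4 lower (median 0.52 against -0.05), where 39.0% of all genes were higher and 41.9% lower, with EGR2 up by 4.49 (1.14 to 4.78 across settings) and EGR4 by 4.05 (1.503 to 4.24), and FOS and FOSB down by 1.17 and 0.77. In MCF10Ca1a against MCF10AT1, 5 were higher and 6 lower (median -0.21 against -0.04), against 38.0% and 40.3% of all genes. SRF, the partner of ELK1 and ELK3, was the one lower gene in the first comparison, at -0.29, and it stands in both this list and that of partners, as does FOS.

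Of 20 genes known as targets of FLI1 and ERG in vessel and blood cells, 10 were at or under 3 counts in every library, among them CDH5, CLDN5, TIE1, GP1BA and GP9, and 8 were tested. Of those 8, 4 were lower and 4 did not pass the test in MCF10AT1 against MCF10A (2 called on log2(TPM + 1)), and 2 were higher and 4 lower in MCF10Ca1a against MCF10A, where 61.6% and 80.9% of all genes were called. In MCF10Ca1a against MCF10AT1, 2 were higher and 1 lower, against 78.4%. GATA2 and TEK passed the filter only through MCF10A and so could be called only lower against it, and nothing is read from these counts. The call of TEK in MCF10AT1 (27, 19 and 20 counts in MCF10A, then 12, 5 and 16, adjusted p = 0.039) was lost in 11 of 17 settings, with an adjusted p of up to 0.173, among them leaving out any 1 library other than MCF10A library 3 or MCF10AT1 library 3. LMO2, a blood and vessel cofactor, had 129, 127 and 153 counts in MCF10A, 23, 42 and 32 in the MCF10AT1 libraries and 6, 1 and 3 in MCF10Ca1a, and fell by 2.04 ± 0.23 (SE, adjusted p = 4.29e-06) and 4.40 ± 0.35 (adjusted p = 3.57e-08). Across the settings tried, the log2 change of LMO2 ran from -2.26 to -1.09 and from -5.10 to -1.49. GATA2 is given as a description, since it could be called only lower against MCF10A. It fell by 2.73 and 1.99 from 51, 51 and 42 counts in MCF10A (-2.85 to -0.30 and -2.22 to -0.21 across settings). All 4 blood cell markers tested (ITGAM, CD68, CD14 and LAPTM5) were lower in MCF10AT1 than in MCF10A. Their median log2 change was -2.23, against -0.0038 for all genes, of which 31.8% were lower. In MCF10Ca1a 3 were lower and CD68 higher, where 41.9% of all genes were lower and 39.0% higher. ITGAM passed the filter only through MCF10A, so against that line it could be called only lower. The part of cells or RNA with these markers in the lower counts of FLI1, LMO2 and GATA2 was not tested. PECAM1, an endothelial adhesion gene that is also in the endothelial list, rose 14.5-fold in MCF10Ca1a, from 181, 207 and 232 counts in MCF10A to 1600, 1415 and 1751. Its log2 change was 3.86, and ran from 3.59 to 4.74 across settings. The other tested endothelial markers were lower in MCF10Ca1a than in MCF10A: KDR went from 42, 30 and 40 counts to 0, 0 and 1 (adjusted p = 9.42e-07) and ROBO4 changed by -0.80 (adjusted p = 7.93e-05). Of these 3, 1 was thus higher and 2 lower against either other line, and in MCF10AT1 against MCF10A ROBO4 was higher and the others did not pass the test. No binding was measured, so whether FLI1 acts on any of these genes was not tested.

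Of 12 RAS-responsive genes with ETS and AP-1 sites, 11 were tested, and 4 were higher and 5 lower in MCF10AT1 against MCF10A and 3 higher and 5 lower in MCF10Ca1a against MCF10A. Against MCF10AT1, MCF10Ca1a had 5 of them higher and 4 lower. Over all genes 61.6%, 80.9% and 78.4% were called. MMP9, a gelatinase, went from 1090, 915 and 936 counts in MCF10A to 1, 1 and 0 in MCF10AT1 and 3, 3 and 4 in MCF10Ca1a. MMP9 was at least 307-fold lower in the premalignant line, a bound from the floor. In the malignant line MMP9 was barely above the floor, and its fitted fall was 152-fold (log2 change -7.25, and -7.39 to -3.03 across settings). With so few counts, the bound and the fitted fall do not rank the derived lines. MMP9 passed the filter only through MCF10A, so it could be called only lower against that line. MMP9 is also 1 of the 5 called higher in MCF10Ca1a against MCF10AT1, on the few counts given, and that call was lost in 2 of 19 settings (log2 change 0.07 to 4.79). HBEGF, an EGF receptor ligand, rose by 0.85 and 3.52, and DUSP6, a MAPK phosphatase, by 1.03 and 0.46. Of 10 matrix and TGF-beta genes, 8 were tested, and 1 was higher and 5 lower in MCF10AT1 against MCF10A and 2 higher and 5 lower in MCF10Ca1a against MCF10A. Between the derived lines, 5 were higher and 3 lower in MCF10Ca1a. The median log2 change was -0.91, -0.60 and 1.06 in the 3 comparisons, against the same shares of all genes called as for the RAS-responsive list. SPARC, a matrix protein, had 4040, 3742 and 3805 counts in MCF10A, 51, 43 and 57 in the MCF10AT1 libraries and 176, 159 and 205 in MCF10Ca1a, a fall of 75.2-fold and 11.3-fold. The log2 change in MCF10AT1 was -6.23, and it ran from -7.35 to -5.33 across the settings tried.

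The genes whose pattern was most like that of FLI1 and of each of the 7 tested members were named by Pearson correlation of log2(CPM + 1) over the 9 libraries, as a description with no p, since the libraries of a line share their line. For FLI1 they were P4HA3 (r = 0.99997), ZNF790 (0.99997) and COCH (0.99995), all at 0 in both derived lines, and 145 of 12015 genes reached an r of 0.99. ETS1 was most like OSBP (0.99904), ETS2 most like PINK1 (0.99922), ETV1 most like SELENBP1 (0.99903), ELK3 most like KIAA0930 (0.99827) and ELF1 most like MATN3 (0.99855). ELK1 reached 0.98659 with C1orf226 and ETV6 only 0.88761 with FAM86EP, and neither had a gene at 0.99. On log2(TPM + 1), 1 of the 3 nearest genes was kept for FLI1 and for ETS1 and 0 for the other members.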

How the data were processed

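Polyadenylated RNA of 3 cell lines, 3 libraries each, was sequenced with a stranded Illumina kit, per the labels' protocols. The submitters' processing notes name Salmon and hg38, with no version or annotation. The authors deposited estimated counts per gene and per transcript, length-scaled and scaled forms of the gene counts, and TPM per gene and transcript, used as deposited. Columns were matched to libraries by name.

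Estimated counts were rounded. Of 62666 genes, 17910 passed edgeR's filterByExpr with the line as group (10 counts, total 15). The test was edgeR's quasi-likelihood test (edgeR 4.0.16, R 4.3.3) with TMM, all 9 libraries in 1 fit and Benjamini-Hochberg adjustment at 0.05. CPM use TMM-scaled totals. Transcript shares were tested with limma 3.58.1 on log2 of one transcript (mean of at least 10 counts and 5% of the gene's counts) over the gene's others, with 0.5 added to both. FLI1 was left out of counts of called genes and transcripts. Both tests were tested on simulated data. Positions are from GENCODE 29 on GRCh38, matched by unversioned identifier for 58227 genes (92.9%).

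The members, lists and rules were chosen with earlier results of these data known. Beside the 9 members, named genes were the largest changes, up to 3 per list, direction and comparison, among those called without overlap between lines, the 3 genes most like a member, genes within 500 kb of FLI1 and transcripts with 10% or more of a member's TPM. Other genes of the lists, KCNJ15 and the genes that share the pattern of FLI1 were named after their values were seen. Alternatives were normalisation by DESeq2 1.42.0 or its Wald test, no low-count filter, the other deposited count forms, a replicate block, a fit of just the compared lines, libraries thinned to the total of the smallest, and leaving out 1 library. The settings on log TPM (pseudocounts 1 and 0.1, limma, TPM filter of 0.5 or none) change the measure, the test and the filter together, and the Wald test changes normalisation and test.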

Additional observations from a re-analysis of the deposited data

How the results depend on the processing

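Of 1134 alternative values of the log2 changes of ETS genes other than FLI1, 1080 kept their direction and side of the threshold. The number of ETS members called ran from 4 to 6, 5 to 6 and 5 to 7 in the premalignant over the parental line, the malignant over the parental and the malignant over the premalignant. The changes of ETV1, ELK1 in MCF10AT1, ELK3 and ELF1 against MCF10A passed the threshold under every alternative run. ELF4 in MCF10AT1 against MCF10A was lost in 15 of 20 alternatives. Genes called over the table ran from 8892 to 11649, 12713 to 16050 and 12505 to 15312. Of the vessel and blood targets, 4, 6 and 3 were called in the 3 comparisons, against 2 on log2(TPM + 1) in the first and 5 without a filter and 5 with length-scaled counts in the third. The cause was not tested.

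The replicate numbers did not pair the libraries (correlations of deviations from -0.174 to 0.202). With the replicate block, 10846, 14397 and 13917 genes were called against 11025, 14491 and 14034 without it, 6, 6 and 5 ETS members were called as without it, and the member transcripts called in MCF10AT1 against MCF10A were 1 in place of 2, since ETS2-202 was lost (adjusted p = 0.0617). With 1 library left out these were 1 to 2, and 2 to 4 in MCF10Ca1a against MCF10AT1, with 4 without MCF10Ca1a library 3. The ratio of summed ETS TPM of MCF10Ca1a to MCF10AT1 was 1.353 as a sum of CPM. MCF10Ca1a, with the smallest totals, limits low genes most.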
